A study of Homo sapiens with 6 samples.

Results

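The genes described here are 39 components of the redox defence that is built on the transcription factor NRF2, glutathione and thioredoxin. They were taken from a fixed list of symbols, and all 39 were found, 1 gene ID each, among the 60660 IDs of every library. All 39 also passed the filter on low values that left 28015 genes for testing, so the counts below cover every listed gene. Expression was measured by RNA-seq in the established cell line OCI-AML3, grown from a human acute myeloid leukaemia, in 2 groups of 3 libraries. The SLC2A3 group overexpressed SLC2A3, the gene of the glucose transporter GLUT3, and the pLenti group carried the empty vector. Both groups had received 250 µM vitamin C, so an effect of the vitamin cannot be told apart from the conditions the groups share. The labels state neither whether each line was a clone or a pool nor whether the libraries came from separate cultures, so p-values measure the spread between these libraries, which may be technical.

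NRF2, encoded by NFE2L2, is held in the cytoplasm and sent for degradation by KEAP1. Oxidants and electrophiles modify KEAP1, and NRF2 then enters the nucleus and binds antioxidant response elements, from which the repressor BACH1 can be displaced. Its targets supply glutathione, the main cellular thiol, and thioredoxin, which returns electrons from NADPH to oxidised proteins and peroxiredoxins. The same systems touch vitamin C. GLUT3 and its relatives carry dehydroascorbic acid, the oxidised vitamin, and cells reduce it back to ascorbate with glutathione or with enzymes such as GSTO1, glutaredoxin and thioredoxin reductase.

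The libraries held 31054462 to 35770556 recovered reads, and SLC2A3 itself had 4056, 3716 and 4054 normalised reads in the SLC2A3 libraries, against 1194, 1183 and 1257 in the pLenti libraries. A normalised read is the deposited value, a gene's read count divided by 1 factor per library. All 7 of the myeloid markers checked averaged at least 10 normalised reads over the 6 libraries. The same held for 1 of 6 erythroid markers (KLF1), 0 of 4 epithelial markers and 3 of 4 fibroblast markers. The T cell genes CD3D and CD3E, the B cell gene MS4A1, the globins HBA1 and HBB and the keratin KRT5 were at 0 in all 6 libraries. The fibroblast markers summed to between 31.0 and 91.1 normalised reads in the SLC2A3 libraries and between 22.4 and 50.1 in the pLenti libraries, and their part in the results below was not tested. Replicate 2 stood apart within each group in the noncoding RNA RN7SL1, at 6026 normalised reads in the SLC2A3 group and 1812 in the pLenti group. The other libraries had between 1922 and 2233 in the SLC2A3 group and between 538 and 705 in the pLenti group. RN7SL1 also differed between the groups, which did not overlap, at 3.35-fold higher in the SLC2A3 group (limma adjusted p = 0.000861, DESeq2 adjusted p = 0.133), and its part in the results below was not tested. The count of redox genes called was 3 with all libraries and 3 without both replicate 2 libraries.

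Few genes of the redox defence passed the test. By limma, at an adjusted p under 0.05 over all tested genes, 3 of the 39 genes rose in the SLC2A3 group and 0 fell. The 3 were SLC7A11, which imports cystine for glutathione synthesis, the cytosolic thioredoxin TXN and the peroxiredoxin PRDX5, and their changes were 1.22-fold, 1.13-fold and 1.13-fold. In RNA from whole cultures, fewer cells of a kind and less RNA per cell cannot be told apart. Over all tested genes 1.49% were called, 0.692% higher and 0.8% lower, and among the 11730 tested genes with a mean of at least 100 normalised reads, as 37 of the redox genes have, 3.45% were called. The share of the redox genes called was 7.69%. The count of 3 became 1, SLC7A11 alone, without SLC2A3 replicate 1, pLenti replicate 1 or pLenti replicate 3, and 0 without SLC2A3 replicate 3. At an unadjusted limma p under 0.05, 6 redox genes were higher and 0 lower. Of all 28015 tested genes, 1578 were higher and 1715 lower at that level, 11.8% in either direction. On the recovered reads, edgeR called 4 redox genes higher and 0 lower, where 3.29% of all genes it tested were called. DESeq2 also called 4 higher and 0 lower, where 7.98% of all genes with an adjusted p were called. In both tools the additional gene was MGST2. The median log2 change of the 39 genes was -0.02, against 0.00137 for all tested genes, with 16 values above 0 and 23 below. The groups did not overlap for 6 of the genes (15.4%), with the SLC2A3 libraries above in each, against 16.3% of all tested genes in either direction and 8.04% with the SLC2A3 libraries above. None of the 39 had the SLC2A3 libraries below, as 8.27% of all tested genes did. Among the tested genes with a mean of at least 100, 23.7% did not overlap in either direction.

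**Figure D1:**
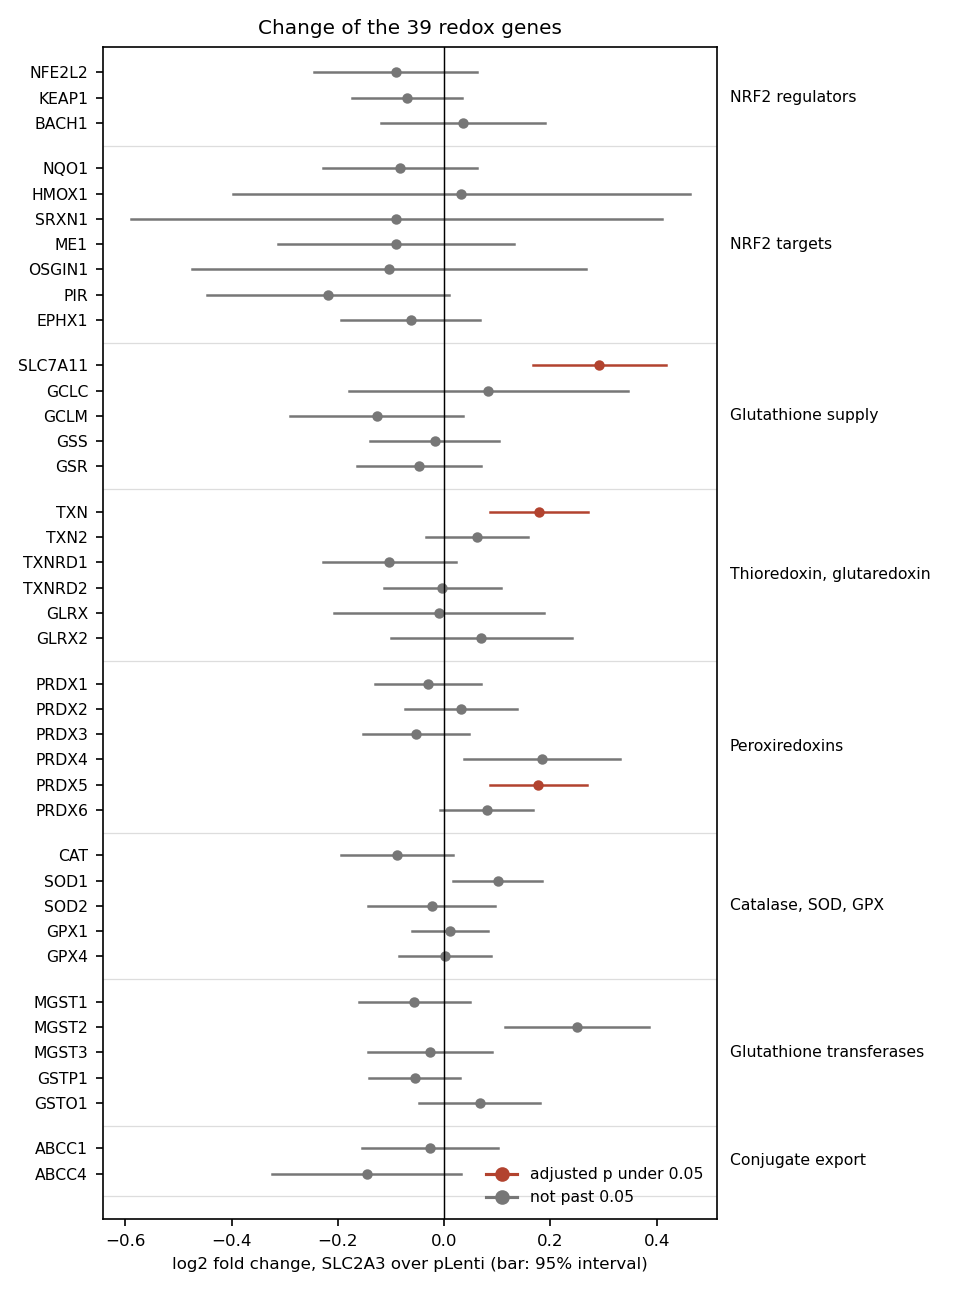
Log2 fold change (x axis, SLC2A3 over pLenti, log2 of value plus 1) of the 39 redox genes, grouped by role, with 95% intervals from the limma fit on 3 libraries per group. SLC7A11, TXN and PRDX5, in red, lie above 0 at an adjusted p under 0.05; the other 36 lie between -0.22 and 0.25.

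For the 36 genes that were not called, the intervals bound the change. The 95% interval, not adjusted for the number of genes, lay within a 1.2-fold change in either direction for 26 of the 36 and within 1.5-fold for 35. SRXN1, at about 75 normalised reads, was the exception at 1.5-fold, with an interval from -0.59 to 0.41 on the log2 scale.

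The NRF2 regulators came first in the pathway order, and 0 of 3 were called by limma, edgeR or DESeq2 or had an unadjusted p under 0.05. NFE2L2 (ENSG00000116044.16, chromosome 2, 177227595 to 177392697, GRCh38) had 952, 1070 and 938 normalised reads in the SLC2A3 libraries, against 1132, 980 and 1042 in the pLenti libraries. The groups overlapped, with a log2 change of -0.09 (95% interval -0.25 to 0.06, limma adjusted p = 0.722). KEAP1, the adaptor that targets NRF2 for ubiquitination, had 3547, 3740 and 3504 normalised reads in the SLC2A3 libraries, against 3874, 3578 and 3877 in the pLenti libraries. Its log2 change was -0.07 (-0.17 to 0.03, limma adjusted p = 0.673), and pLenti replicate 2 lay within the SLC2A3 range. BACH1, the haem-sensing repressor that competes for the same elements, had 973, 1217 and 1081 in the SLC2A3 libraries, against 1040, 1066 and 1072 in the pLenti libraries. The SLC2A3 libraries spread on both sides of the pLenti libraries, and the log2 change was 0.04 (-0.12 to 0.19). In NFE2L2, 17.6% of the merged exon bases also belong to the same-strand transcript AC019080.1 in GENCODE 29, so reads there could be shared or set aside.

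None of the 7 NRF2 target genes outside the glutathione and thioredoxin groups was called by limma, edgeR or DESeq2, and 0 had an unadjusted p under 0.05. NQO1, a quinone reductase and the standard readout of NRF2 activity, had 1242, 1395 and 1168 normalised reads in the SLC2A3 libraries, against 1328, 1280 and 1416 in the pLenti libraries. The ranges overlapped, with a log2 change of -0.08 (-0.23 to 0.06, limma adjusted p = 0.735). HMOX1, haem oxygenase, stood at a low level, with 80.8, 108 and 80.1 in the SLC2A3 libraries, against 105, 81.0 and 77.1 in the pLenti libraries. One library in each group was high, and the interval of its log2 change, -0.40 to 0.46, was wide. SRXN1, sulfiredoxin, which repairs overoxidised peroxiredoxins, had 67.8, 104 and 52.3 in the SLC2A3 libraries, against 87.6, 78.0 and 65.1 in the pLenti libraries. The SLC2A3 libraries enclosed the pLenti range. In GENCODE 29, 85.0% of the SRXN1 exon bases also belong to the same-strand gene AL121758.1, so reads there could be shared or set aside. AL121758.1 averaged 0.949 normalised reads in the SLC2A3 group and 1.36 in the pLenti group. Of the OSGIN1 exon bases 13.9% belong to another same-strand gene, which is not among the IDs of these libraries. DESeq2 gave HMOX1, SRXN1 and OSGIN1 no adjusted p, since their means lay under its filter of 257 normalised reads. PIR, an iron-containing nuclear protein, had 300, 324 and 278 in the SLC2A3 libraries, against 318, 386 and 347 in the pLenti libraries. Its log2 change was the lowest of the 39 genes, -0.22 (-0.45 to 0.01, limma adjusted p = 0.451), which did not pass. EPHX1, microsomal epoxide hydrolase and the target with the highest level per kilobase, had 1389, 1275 and 1340 in the SLC2A3 libraries, against 1365, 1442 and 1376 in the pLenti libraries. These ranges overlapped too. The remaining targets, ME1, malic enzyme, which makes NADPH, and OSGIN1, an oxidative stress-induced growth inhibitor, had log2 changes of -0.09 and -0.10.

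Glutathione is made from glutamate, cysteine and glycine, and cysteine arrives as cystine through SLC7A11. SLC7A11 (ENSG00000151012.13, chromosome 4, 138164097 to 138242349, GRCh38) had 2027, 2216 and 2325 normalised reads in the SLC2A3 libraries, against 1876, 1719 and 1763 in the pLenti libraries. Every SLC2A3 library lay above every pLenti library. The means were 2189 ± 151 and 1786 ± 81.0 (SD, n = 3 each), and the log2 change was 0.29 (SE 0.061, limma adjusted p = 0.00854). SLC7A11 passed under 16 of 17 alternative settings, and without SLC2A3 replicate 3, its highest library, the log2 change was 0.25 and the adjusted p 0.126. Of its merged exon bases 8.97% overlap the opposite-strand SLC7A11-AS1, which averaged 16.2 normalised reads in the SLC2A3 group and 15.7 in the pLenti group.

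The enzymes that use the imported cysteine did not pass. GCLC, the catalytic subunit of the first and limiting step, had 358, 438 and 349 normalised reads in the SLC2A3 libraries, against 451, 356 and 287 in the pLenti libraries. The pLenti libraries spread more widely than the SLC2A3 libraries, with a log2 change of 0.08 (-0.18 to 0.35). GCLM, its modifier subunit and a well-known NRF2 target, had 792, 813 and 882 in the SLC2A3 libraries, against 1007, 833 and 882 in the pLenti libraries. Its log2 change was -0.13 (-0.29 to 0.04, limma adjusted p = 0.588), with pLenti replicate 1 above the rest. GSS, which adds glycine, averaged 2574 ± 46.5 in the SLC2A3 group and 2613 ± 234 in the pLenti group. GSR, glutathione reductase and the highest of this group per kilobase, had 3150, 3650 and 3593 in the SLC2A3 libraries, against 3776, 3401 and 3549 in the pLenti libraries. Its groups overlapped, with a log2 change of -0.05. SLC7A11 was the 1 called gene of the 5 that supply and recycle glutathione.

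The thioredoxin and glutaredoxin group held the second called gene. TXN (ENSG00000136810.13, chromosome 9, 110243811 to 110256640, GRCh38), cytosolic thioredoxin, had 5752, 5670 and 5973 normalised reads in the SLC2A3 libraries, against 5048, 5288 and 5032 in the pLenti libraries. The groups did not overlap. The means were 5798 ± 157 and 5123 ± 143 (SD, n = 3 each), and the log2 change was 0.18 (SE 0.045, limma adjusted p = 0.0374). TXN passed under 10 of 17 alternatives. It lost its call without SLC2A3 replicate 1 or 3 (adjusted p = 0.0558 and 0.232) and without pLenti replicate 1 or 3 (0.154 and 0.188). After removal of a trend on exon length and GC share, its log2 change was 0.11 (adjusted p = 0.201). With the replicate number as a block, the adjusted p was 0.0768 for TXN and 0.0615 for PRDX5, and SLC7A11 was the 1 redox gene called.

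TXNRD1, the selenium-containing reductase that recharges TXN, did not pass. It had 2387, 2744 and 2843 normalised reads in the SLC2A3 libraries, against 2991, 2698 and 2861 in the pLenti libraries. The ranges overlapped, with a log2 change of -0.10 (-0.23 to 0.02, limma adjusted p = 0.554), and whether TXN and TXNRD1 differ in their change was not tested. GLRX, cytosolic glutaredoxin, had 449, 567 and 568 in the SLC2A3 libraries, against 515, 555 and 515 in the pLenti libraries. The pLenti libraries lay inside the SLC2A3 range, and the log2 change was -0.01 (-0.21 to 0.19). The mitochondrial members TXN2, TXNRD2 and GLRX2 had log2 changes of 0.06, -0.0036 and 0.07, none of them past the threshold (limma adjusted p = 0.687, 0.993 and 0.829). Of the 3 listed enzymes that can reduce dehydroascorbic acid, GLRX and TXNRD1 are given here and GSTO1 with the transferases, and none was called.

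**Figure D2:**
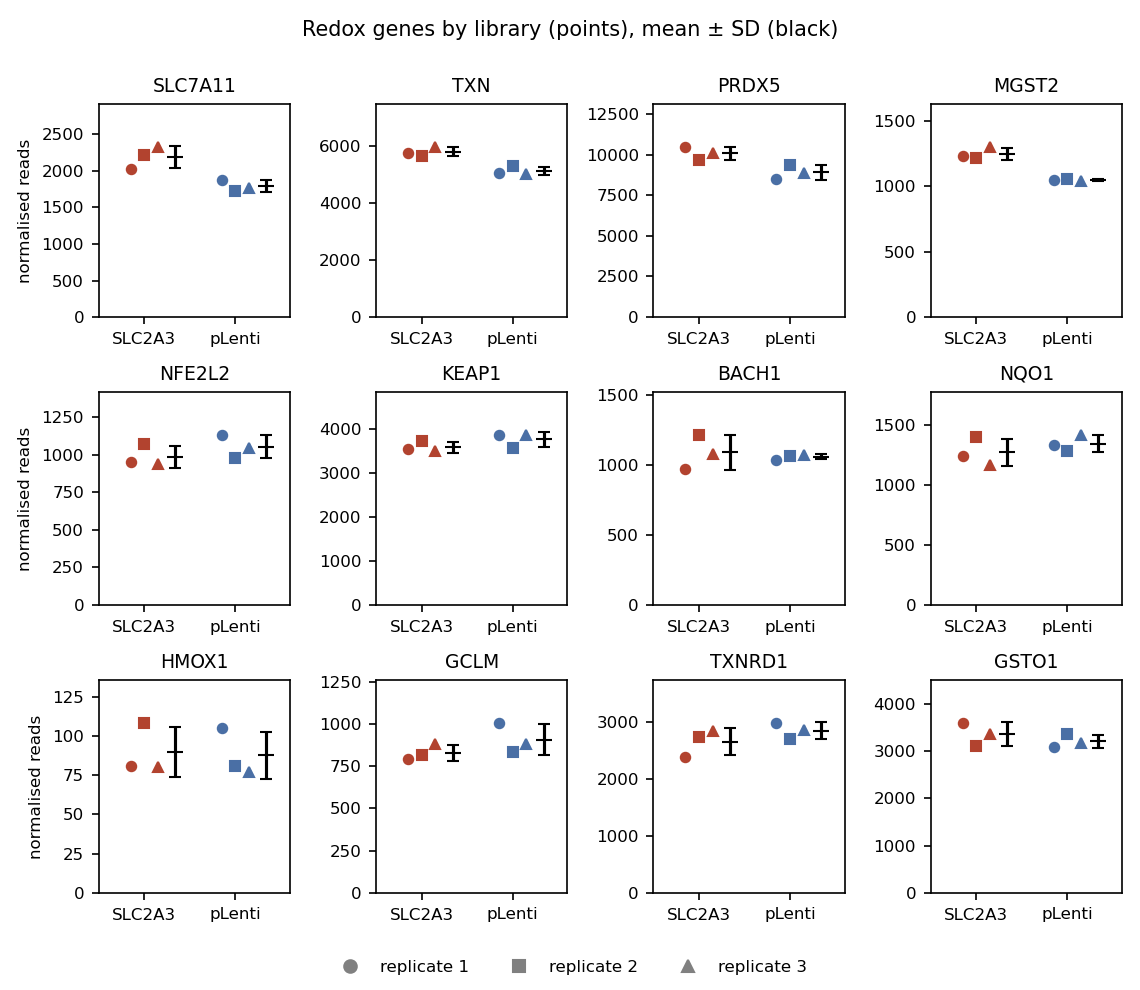
Normalised reads (y axis, linear from 0) in the 3 SLC2A3 and 3 pLenti libraries for 12 redox genes, with marker shapes for replicates and black bars for mean ± SD. In SLC7A11, TXN, PRDX5 and MGST2 the SLC2A3 points all lie above the pLenti points; in the other 8 genes the groups overlap.

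Peroxiredoxins reduce hydrogen peroxide with a reactive cysteine, mostly at the expense of thioredoxin. PRDX5 (ENSG00000126432.14, chromosome 11, 64318088 to 64321811, GRCh38), found in mitochondria, peroxisomes and cytosol, had 10473, 9664 and 10071 normalised reads in the SLC2A3 libraries, against 8468, 9376 and 8884 in the pLenti libraries. The groups did not overlap, although SLC2A3 replicate 2 and pLenti replicate 2 lay close together. The means were 10069 ± 404 and 8909 ± 455 (SD, n = 3 each), with a log2 change of 0.18 (SE 0.044, limma adjusted p = 0.0356). PRDX5 passed under 10 of 17 alternatives. Its adjusted p was 0.138 without SLC2A3 replicate 1, 0.184 without SLC2A3 replicate 3, 0.228 without pLenti replicate 1 and 0.112 without pLenti replicate 3. PRDX5 and TXN share no exon bases with another gene in GENCODE 29.

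PRDX4, the peroxiredoxin of the endoplasmic reticulum, had 1107, 1037 and 1137 normalised reads in the SLC2A3 libraries, against 1008, 896 and 985 in the pLenti libraries. The groups did not overlap, but its log2 change of 0.18 (0.04 to 0.33) did not pass (limma adjusted p = 0.261). PRDX6, which uses glutathione in place of thioredoxin, had 7588, 7923 and 8110 in the SLC2A3 libraries, against 7301, 7590 and 7456 in the pLenti libraries. The groups met at SLC2A3 replicate 1 and pLenti replicate 2, and the log2 change was 0.08 (-0.0076 to 0.17, limma adjusted p = 0.483). The cytosolic PRDX1 and PRDX2 and the mitochondrial PRDX3 had log2 changes of -0.03, 0.03 and -0.05, with limma adjusted p of 0.88, 0.883 and 0.764. Of the PRDX1 exon bases 24.9% overlap the opposite-strand gene MMACHC, and the sources used here do not say how counting treated strand. Across the 6 peroxiredoxins, 1 was called. The reads of all 6 together came to 31520 ± 438 in the SLC2A3 group and 29989 ± 415 in the pLenti group. That sum includes the called PRDX5, while PRDX1 and PRDX3 had log2 changes below 0, so it does not describe a joint rise.

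None of the 5 genes of catalase, superoxide dismutases and glutathione peroxidases was called by limma, edgeR or DESeq2, and SOD1 was the 1 with an unadjusted p under 0.05. SOD1, the cytosolic copper and zinc dismutase, had 8702, 8761 and 9011 normalised reads in the SLC2A3 libraries, against 8203, 8447 and 8046 in the pLenti libraries. The groups did not overlap, and the log2 change of 0.10 (0.02 to 0.18) had a limma adjusted p of 0.294. CAT, the peroxisomal catalase, had 3135, 3313 and 3095 in the SLC2A3 libraries, against 3506, 3252 and 3387 in the pLenti libraries. Its groups overlapped, with a log2 change of -0.09 (limma adjusted p = 0.546). GPX1, which reduces hydrogen peroxide with glutathione, had 33710, 32559 and 32363 in the SLC2A3 libraries, against 32098, 33588 and 32239 in the pLenti libraries. The interval of its log2 change, -0.06 to 0.08, was the narrowest of the 39 genes. GPX4, which reduces lipid peroxides and restrains ferroptosis, averaged 12598 ± 526 in the SLC2A3 group and 12585 ± 580 in the pLenti group, with an interval from -0.09 to 0.09. The mitochondrial manganese dismutase SOD2 had a log2 change of -0.02.

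Glutathione transferases couple glutathione to electrophiles, and MGST2, a microsomal member, came closest to the threshold without passing. MGST2 (ENSG00000085871.9, chromosome 4, 139665768 to 139740745, GRCh38) had 1231, 1213 and 1302 normalised reads in the SLC2A3 libraries, against 1051, 1054 and 1043 in the pLenti libraries. The groups were well apart, with means of 1249 ± 46.9 and 1050 ± 5.63 (SD, n = 3 each). The log2 change was 0.25 (0.11 to 0.38, SE 0.066), with a limma adjusted p of 0.0501, against 0.0315 by edgeR and 0.0127 by DESeq2. It passed under 7 of 17 alternatives and under none of those that left out 1 library. Of its exon bases 7.92% overlap the opposite-strand gene MAML3. GSTO1, whose product can reduce dehydroascorbic acid, had 3598, 3109 and 3368 in the SLC2A3 libraries, against 3083, 3351 and 3171 in the pLenti libraries. These ranges overlapped, with a log2 change of 0.07 (-0.05 to 0.18, limma adjusted p = 0.727). GSTP1, the most abundant transferase per kilobase here, had 10221, 9841 and 9616 in the SLC2A3 libraries, against 9837, 10525 and 10494 in the pLenti libraries. Its log2 change was -0.06 (-0.14 to 0.03), and those of MGST1 and MGST3 were -0.06 and -0.03.

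The exporters of glutathione conjugates and related anions did not pass. ABCC4 had 546, 644 and 607 normalised reads in the SLC2A3 libraries, against 712, 654 and 621 in the pLenti libraries, with a log2 change of -0.15 (-0.32 to 0.03, limma adjusted p = 0.562). The ranges overlapped between 621 and 644. ABCC1, which exports glutathione conjugates, had 1329, 1404 and 1398 in the SLC2A3 libraries, against 1416, 1433 and 1361 in the pLenti libraries. Its log2 change was -0.03.

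**Figure D3:**
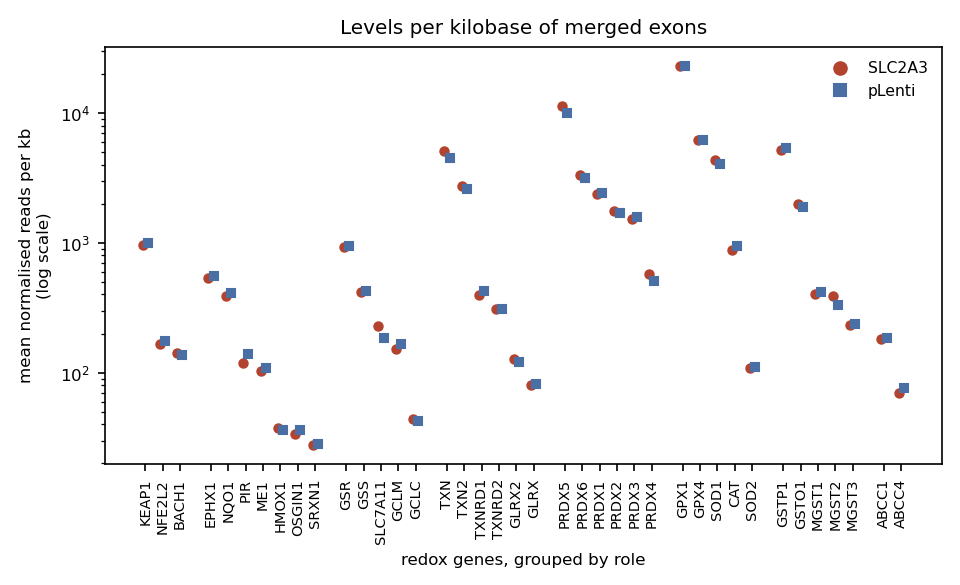
Mean normalised reads per kilobase of merged exons (y axis, log scale) of the 39 redox genes in the SLC2A3 (circles) and pLenti (squares) groups, by role. GPX1 is highest and SRXN1, most of whose exon bases overlap another gene, lowest in both groups, and the symbols of the groups lie close together for every gene.

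Levels can be compared between genes only per length, and here the length is that of all merged exons in GENCODE 29. On that scale GPX1 was highest, at 22991 normalised reads per kilobase in the SLC2A3 group and 22826 in the pLenti group, and PRDX5 second, at 11276 and 9977. GPX4, GSTP1, TXN and SOD1 followed. At the low end were SRXN1 at 27.6 in the SLC2A3 group and 28.5 in the pLenti group, OSGIN1 at 34.0 and 36.1, and HMOX1 at 37.3 and 36.5. The mean over the 6 libraries thus spanned 816-fold between the highest and the lowest of the 39. SOD2 has merged exons of 16.5 kilobases, and such lengths of genes with many transcripts overstate the expressed transcript. TXN and PRDX5 were among the 5 highest genes on this scale, while SLC7A11 ranked 25th.

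**Figure D4:**
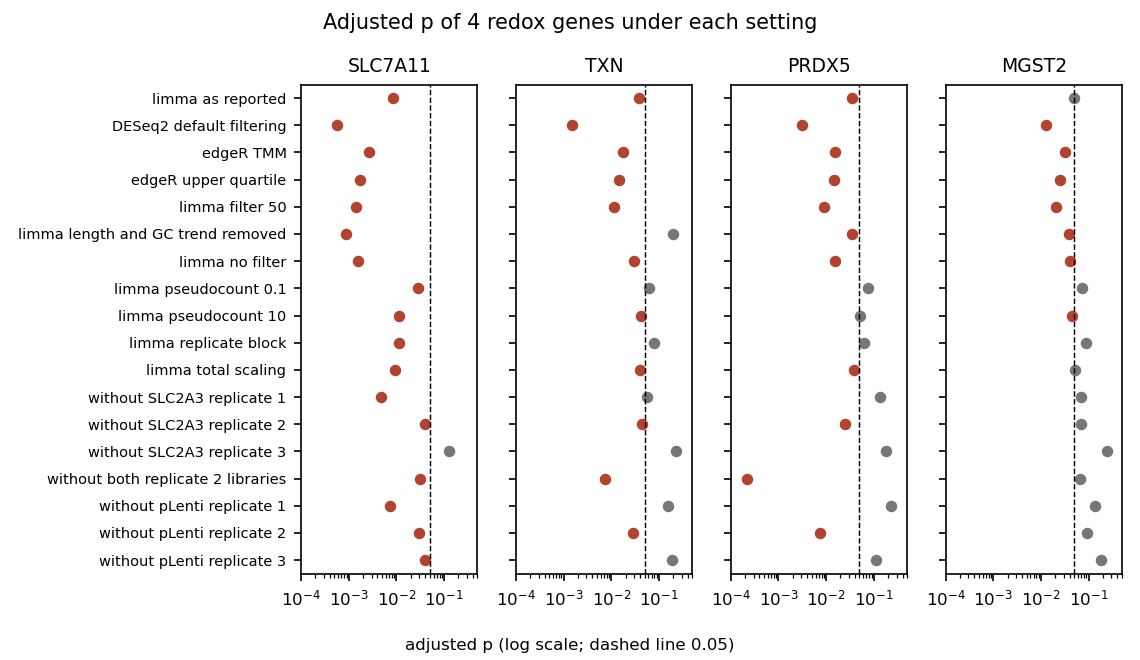
Adjusted p (x axis, log scale, dashed line at 0.05) of SLC7A11, TXN, PRDX5 and MGST2 in the reported limma fit and under 17 alternative settings (rows), red where under 0.05. SLC7A11 passes in all but 1 alternative, TXN and PRDX5 in 10 each and MGST2 in 7.

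Short promoter windows were searched for the letters that NRF2 recognises, which covers only the bases next to a start. RefSeq sequence on GRCh38.p14, from 250 bases before to 50 after a transcription start, was held for 29 of the 39 genes in 48 windows, and ABCC1, GSR, GSS, HMOX1, MGST2, PRDX1, PRDX6, SLC7A11, SOD1 and TXN2 had no entry. The core of the antioxidant response element was searched as TGACNNNGC on both strands. It was found for 10 of the 29 genes (34.5%), namely ABCC4, EPHX1, GCLM, GSTO1, GSTP1, KEAP1, ME1, MGST1, PIR and TXNRD1, against 18.6% of 14099 tested genes with a window. Of the 10 genes with the core, 0 were called by limma, edgeR or DESeq2 and 0 had an unadjusted p under 0.05, with log2 changes from -0.22 to 0.07. Of the 19 without it, 2 were called, TXN and PRDX5. Over all tested genes with a window, 2.29% of those with the core and 2.32% of those without it were called. The ATF4-type element TGATGNAA was in none of the 29 genes' windows and in 3.13% of the tested genes. A match is a description of letters and not a binding site, and the absence of one says nothing about elements elsewhere.

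The 250 bases before the start are given for the called genes TXN and PRDX5, neither of which holds the core, and for GCLM, GSTP1 and GSTO1 as genes that hold it. They run 5′ to 3′ on the gene's strand, with core matches in capitals. PRDX5 has a second start in the table and its first is shown.
TXN, chr9:110256508-110256757, minus strand: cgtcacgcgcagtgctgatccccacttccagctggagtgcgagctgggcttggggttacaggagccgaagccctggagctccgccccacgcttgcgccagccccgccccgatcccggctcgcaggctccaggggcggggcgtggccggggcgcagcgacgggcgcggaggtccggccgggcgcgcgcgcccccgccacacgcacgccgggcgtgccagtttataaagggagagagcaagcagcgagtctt
PRDX5, chr11:64317871-64318120, plus strand: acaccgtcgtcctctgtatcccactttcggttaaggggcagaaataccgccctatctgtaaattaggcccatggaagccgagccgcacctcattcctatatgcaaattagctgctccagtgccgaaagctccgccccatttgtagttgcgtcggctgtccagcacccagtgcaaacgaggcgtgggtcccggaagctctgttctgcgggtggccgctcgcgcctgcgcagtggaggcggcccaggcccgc
GCLM, chr1:93909431-93909680, minus strand: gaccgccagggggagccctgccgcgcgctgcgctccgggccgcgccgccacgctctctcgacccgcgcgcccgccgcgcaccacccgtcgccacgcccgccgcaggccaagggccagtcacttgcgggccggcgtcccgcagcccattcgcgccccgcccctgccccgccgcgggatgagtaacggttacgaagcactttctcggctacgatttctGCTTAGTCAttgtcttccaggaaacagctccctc
GSTP1, chr11:67583562-67583811, plus strand: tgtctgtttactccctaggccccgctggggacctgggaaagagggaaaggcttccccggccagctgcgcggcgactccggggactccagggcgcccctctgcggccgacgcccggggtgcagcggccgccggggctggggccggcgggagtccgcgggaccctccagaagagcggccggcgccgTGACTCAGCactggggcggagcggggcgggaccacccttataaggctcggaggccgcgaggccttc
GSTO1, chr10:104254642-104254891, plus strand: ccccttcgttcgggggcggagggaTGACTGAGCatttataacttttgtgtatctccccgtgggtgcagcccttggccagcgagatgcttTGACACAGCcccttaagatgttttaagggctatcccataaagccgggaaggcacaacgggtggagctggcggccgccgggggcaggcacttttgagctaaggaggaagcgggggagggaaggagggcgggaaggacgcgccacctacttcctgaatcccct
In GCLM the match lay 34 to 26 bases before the start on the opposite strand, and in GSTP1 66 to 58 bases before it. GSTO1 held 2 matches, beginning 226 and 161 bases before the start. Beside these sequences, GCLM had a log2 change of -0.13, GSTP1 of -0.06 and GSTO1 of 0.07, none of them past the threshold.

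Beyond the 39 genes, others of the same pathways were listed, of which 101 were found, all but GSTT1, and 97 tested. By limma 1 of these rose and 3 fell, 4.12% called against 1.49% of all tested genes and 3.45% of those with a mean of at least 100 normalised reads, a level that all 4 called genes exceeded. edgeR and DESeq2 each called 1 higher and 4 lower, SELENON being added. Over all genes with an adjusted p, edgeR called 3.29% and DESeq2 7.98%. The largest change among the called genes was in TXNIP, an arrestin-fold protein that binds and inhibits thioredoxin and also restrains glucose uptake. It had 2211, 2257 and 2174 normalised reads in the SLC2A3 libraries, against 3955, 3912 and 4056 in the pLenti libraries. The groups were far apart, and the log2 change of -0.84 (SE 0.050, limma adjusted p = 7.38e-12) passed under all 17 alternatives. The partner that TXNIP binds, TXN, was higher in the SLC2A3 group and TXNIP lower.

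MAFG, a small MAF protein that pairs with NRF2 or BACH1 on DNA, fell to 6058, 5860 and 5860 normalised reads in the SLC2A3 libraries, against 6719, 6748 and 6811 in the pLenti libraries. The groups did not overlap, and its log2 change was -0.19 (limma adjusted p = 0.0149), but it lost its call without SLC2A3 replicate 3, pLenti replicate 1 or pLenti replicate 3, at adjusted p up to 0.111. MAFG was the 1 called gene of 12 NRF2 partners and adaptors, of which 10 had a log2 change below 0. Of all 28015 tested genes, 13935 were below 0 and 1.49% were called. Among the 11730 with a mean of at least 100 normalised reads, 6225 were below 0 and 3.45% were called. NCF1, a cytosolic subunit of the phagocyte NADPH oxidase that makes superoxide, fell to 7276, 7435 and 6648 in the SLC2A3 libraries, against 8192, 8498 and 8272 in the pLenti libraries. Its log2 change was -0.23 (limma adjusted p = 0.00541), and it lost its call without SLC2A3 replicate 3 (0.109). NCF1 has near-identical pseudogene copies, so its count is uncertain.

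SELENOM, a selenoprotein of the endoplasmic reticulum, had 544, 613 and 538 normalised reads in the SLC2A3 libraries, against 343, 509 and 390 in the pLenti libraries. The groups barely separated at SLC2A3 replicate 3 and pLenti replicate 2, with a log2 change of 0.46 (SE 0.111, limma adjusted p = 0.025). It passed under 11 of 17 alternatives and, of the fits that left out 1 library, only in that without pLenti replicate 2. SELENON, another selenoprotein of the endoplasmic reticulum, had 3497, 3054 and 3301 in the SLC2A3 libraries, against 3612, 3724 and 3800 in the pLenti libraries. Every SLC2A3 library lay below every pLenti library, and the log2 change of -0.18 did not pass by limma (adjusted p = 0.0982) but did by edgeR (0.0493) and DESeq2 (0.0259). The list of selenoproteins also held factors that make or insert selenocysteine, such as SEPSECS and EEFSEC. Of its 17 tested genes, limma thus called 1 higher and 0 lower. Further NRF2 targets included the pentose phosphate enzymes PGD, TALDO1 and TKT and the ferritin chains FTH1 and FTL. Of the 17 tested, 0 were called by limma, edgeR or DESeq2, and 2 had an unadjusted p under 0.05. These were FTH1, at a log2 change of -0.18 (limma adjusted p = 0.152), and TKT, at 0.09 (limma adjusted p = 0.276). FTH1 passed under 3 of 17 alternatives and TKT under 1. Among 24 tested further glutathione genes 0 were called by the same 3 tools, again with 2 at an unadjusted p under 0.05. In both lists DESeq2 gave low genes, such as CBR3 and GPX3, no adjusted p and so could not call them. edgeR left out the lowest, such as ABCC3 and GGT5.

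**Figure D5:**
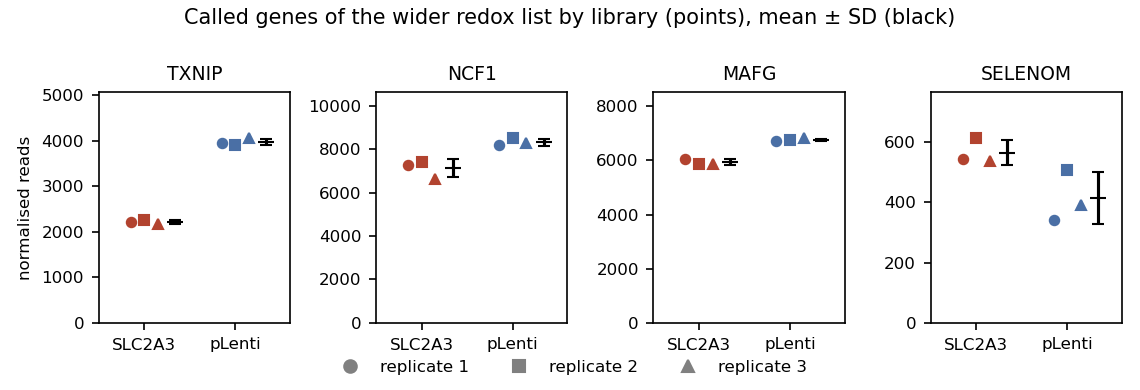
Normalised reads (y axis, linear from 0) of TXNIP, NCF1, MAFG and SELENOM, the called genes of the wider list, in 3 SLC2A3 and 3 pLenti libraries, with black bars for mean ± SD. TXNIP, NCF1 and MAFG lie lower and SELENOM higher in the SLC2A3 libraries.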

How the data were processed

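Gene-level values of 6 RNA-seq libraries were analysed, 3 with SLC2A3 overexpression and 3 with the empty pLenti vector, grouped by the titles. Per the submitters' processing notes, BWA, TopHat2 and the build hg38 were used, and roles, versions, annotation and strand setting are not stated there. The deposited values are a normalised signal in which each library's reads had been scaled by a single number, since 100% of the values were whole multiples of the library's smallest one within 0.001 reads. Symbols came from the gene name table, coordinates and lengths from GENCODE 29 on GRCh38, which may not be the annotation used by the authors.

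Genes reaching 1 in 3 or more libraries were kept, and log2(value + 1) was fitted on group by limma 3.58.1 (trend, R 4.3.3). Benjamini-Hochberg adjustment ran over all 28015 genes, with a threshold of 0.05. Fold changes are 2 to the power of that log2 change and understate low genes. The planned edgeR test for raw counts was replaced by limma as planned for these values. Alternatives were edgeR 4.0.16 and DESeq2 1.42.0 on the recovered reads, other pseudocounts, filters and scalings, a length and GC trend, a replicate block and left-out libraries. Fits were tested on simulated data whose planted changes were larger than those of the called redox genes, so that test does not cover changes of their size. Every pair of replicates differed by more than counting noise (chi-square per gene 3.50 to 6.78), so none was merged as a duplicate; this does not separate technical from biological spread.

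The genes, lists and tests were chosen with earlier results of these data known. Full values are given for called genes, also by edgeR or DESeq2, the 3 regulators, enzymes that reduce dehydroascorbate, 5 classical NRF2 targets, the 8 uncalled genes of lowest p, and the highest per kilobase in each role. The level of 1 lymphoid marker is not reported here.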

Additional observations from a re-analysis of the deposited data

How the results depend on the processing

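Each result was recomputed under 17 alternatives, and no call of SLC2A3 or of a redox gene reversed direction. Other called genes were not checked for reversal. SLC2A3 stayed past the threshold at a log2 change of 1.68 to 1.74 over the fits that left out 1 library. Redox genes called higher numbered 0 to 3 in those fits, the lowest count without SLC2A3 replicate 3, and 0 were lower. With a pseudocount of 0.1, and with the replicate block, 1 redox gene was called in place of 3, SLC7A11 in both. edgeR, DESeq2, no filter and a filter of 50 reads called 4, MGST2 being added. In the wider list, leaving out 1 library gave 0 to 1 higher and 1 to 5 lower, the filter of 50 gave 5 lower, a pseudocount of 0.1 gave 0 higher, and the fit with the length and GC trend taken out gave 2 higher. Over all genes, DESeq2 called 343 higher and 441 lower, edgeR with upper-quartile scaling 303 higher, the filter of 50 gave 322 higher and 417 lower, and a pseudocount of 0.1 gave 144 lower. Leaving out 1 library gave 100 to 222 higher and 88 to 244 lower, with fewer samples; the cause of the other shifts was not tested. The balance of directions, 194 higher and 224 lower, turned with upper-quartile scaling, which gave 303 higher and 265 lower. Same-numbered libraries' deviations from their group means correlated at -0.08, -0.0056 and 0 (4 decimals) over 13374 genes, so no pairing across these genes was seen. A batch shared by same-numbered libraries that moved few genes, or moved them weakly, would not show in such a correlation. The replicate block gave 167 genes higher and 196 lower over all genes. SRXN1, HMOX1 and OSGIN1 had the widest intervals of the redox genes, and the cause was not tested.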
